A study of Mus musculus with 12 samples.

Results

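The IL-4 response of BMDMs on tissue culture (TC) plates was taken from 4 of the 12 RNA-seq libraries of the series, 2 of untreated cells and 2 of cells given IL-4. These 4 libraries were chosen by their labels, and the other 8 came from the same cells embedded in collagen gels. BMDMs are macrophages that grow out of bone marrow in culture, here from wild-type C57BL/6J mice in medium conditioned by L929 cells, a fibroblast line whose medium supplies the macrophage growth factor CSF1. Both TC groups had this origin and strain, and both were labelled with 24 hours of culture. The treated group received recombinant murine IL-4 at 20 ng/ml and the untreated group received none. The gels held collagen at 2 mg/ml (low-collagen) or 7 mg/ml (high-collagen), each untreated or with IL-4 in 2 libraries. The labels number the libraries of a group as replicates 1 and 2 but do not say whether these came from separate mice or cultures, so p-values measure only the spread between these libraries, which may be technical.

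IL-4 is a type 2 cytokine made by T helper cells, innate lymphoid cells, basophils and eosinophils. It binds IL-4Rα, which pairs with the common γ chain or with IL-13Rα1, and the JAK kinases on these chains phosphorylate the transcription factor STAT6. In macrophages STAT6 drives alternative activation, a state known for arginase, chitinase-like proteins, resistin-like proteins and lectin receptors, for tissue repair and for defence against parasitic worms. Signalling by IL-4 is also known to restrain the inflammatory genes that bacterial products and interferons turn on.

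The deposited values are TPM, a measure of how abundant the transcripts of a gene are once transcript length has been divided out and all libraries have been brought to one sum. These sums were from 999658 to 999680 in the TC libraries. How many reads stand behind a value is therefore unknown, and in bulk RNA fewer cells that express a gene and less RNA of it per cell cannot be told apart. Between 11555 and 11692 genes reached a TPM of 1 in each TC library. Pearson's r across the 11683 genes tested was 0.982 between the untreated replicates, 0.98 between the IL-4 replicates and from 0.946 to 0.951 between a library of one group and a library of the other. The cells carried the markers of macrophages, with all 10 listed markers above the filter of a mean TPM of 1 over the 4 libraries and a summed level from 17890 to 29010 TPM. Markers of other cells were low. Their summed levels were at most 1.73 TPM for 10 fibroblast genes, 24.1 TPM for 10 neutrophil genes, 5.33 TPM for 8 eosinophil genes, 0.327 TPM for 8 mast cell and basophil genes, 3.2 TPM for 10 lymphocyte genes and 0.114 TPM for 7 erythroid genes. The 8 dendritic cell genes summed to 5.21 and 3.23 TPM without IL-4 and to 14.0 and 11.3 TPM with it, and Batf3 held most of that sum.

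The test was limma's on log2(TPM + 1), in which the 6 conditions each have a mean and all 12 libraries share in the estimate of the spread. A gene is said to have risen or fallen where its Benjamini-Hochberg adjusted p was under 0.05, and fold changes are log2 values ± standard error (SE) of IL-4 against untreated. Because 1 was added to each TPM, the fold changes of low genes are understated. The smallest two-sided p of an exact permutation test for groups of 2 is 0.33, so single genes are judged against the spread that limma shares across genes.

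On TC plates 2730 of 11683 genes (23.4%) differed between the groups, of which 1060 (9.07%) rose and 1670 (14.3%) fell with IL-4. Of these, 302 rises (2.58%) and 373 falls (3.19%) reached 2-fold. The last gene called was Ndufb10, at a log2 fold change of 0.21, and the first not called was Med23 at 0.40. The median of all genes tested was −0.06. After the TPM of each library were rescaled by their median ratio to the mean library, which takes most genes to be unchanged, 2762 genes (23.6%) differed, 1310 (11.2%) higher and 1452 (12.4%) lower, and the median was −0.01. Of the rises, 1055 were called in both scales. Of the falls, 1447 were called in both scales and 223 were lost on rescaling. No gene was called in opposite directions, and rescaling added 255 rises. In the plot of all genes the fold changes spread further above than below 0.

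**Figure D1:**
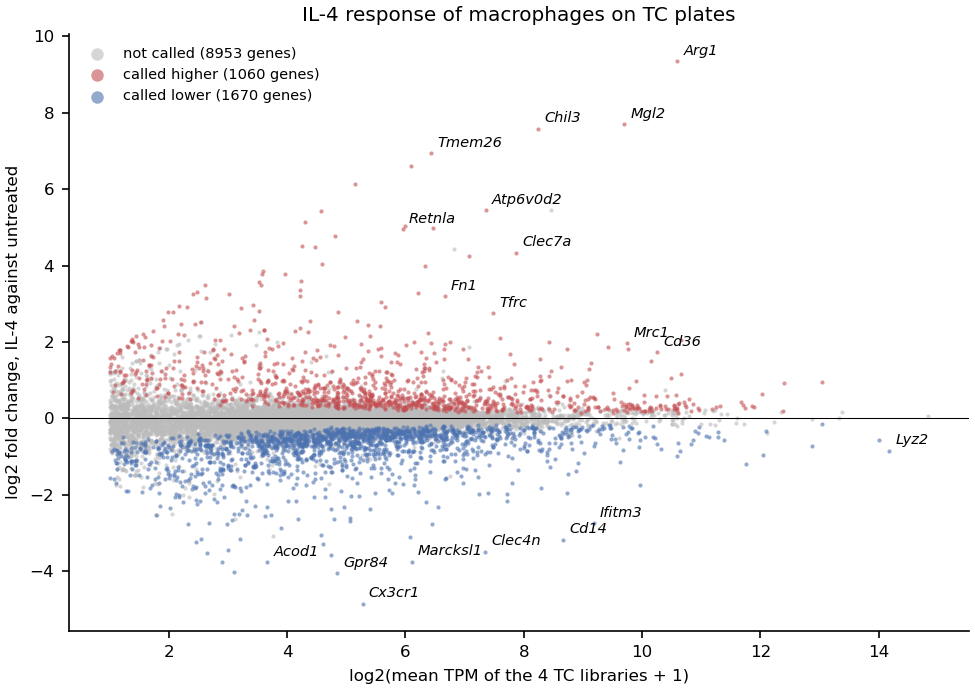
Log2 fold change with IL-4 on TC plates (y axis) against the mean level of the 4 TC libraries as log2(TPM + 1) (x axis), one point per gene tested, red for the 1060 genes called higher and blue for the 1670 called lower. Arg1, Mgl2 and Chil3 lie highest, and Cx3cr1 lies lowest at −4.85.

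Arg1, Mgl2 and Chil3, which rose most, are genes of alternative activation. Arg1 encodes arginase 1, which splits arginine into ornithine and urea, and lies on chromosome 10 (24915221 to 24927484 of GRCm38, minus strand). It was at 1.76 and 7.09 TPM in the untreated libraries and at 3114 and 3069 TPM with IL-4, which gave a log2 fold change of 9.36 ± 0.36 (adjusted p = 1.2e-07). Both IL-4 libraries stood far above both untreated libraries, whose values differed by more than 4-fold from each other. Mgl2, a lectin receptor for galactose-type sugars on chromosome 11 (70130329 to 70137550, plus strand), went from 6.57 and 7.22 TPM to 1642 and 1652 TPM, by 7.71 ± 0.25. Chil3, the chitinase-like protein Ym1 (chromosome 3, 106147554 to 106167564, minus strand), went from 1.15 and 3.5 to 565 and 632 TPM, by 7.59 ± 0.27. Both genes have near copies. Of the 31-base words in the transcripts of Mgl2, 22.8% also occur in other genes, mostly Clec10a, and of those of Chil3 41.5% do, mostly Chil4, so reads between such genes were divided by the quantification.

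Tmem26, a membrane protein of the cell surface, was nearly silent without IL-4 at 0.328 and 0.451 TPM and stood at 171 and 169 TPM with it (6.94 ± 0.16). Its transcripts share no 31-base word with another gene. Rnase2a, an RNase of the family found in eosinophil granules (chromosome 14, 51255262 to 51256112, minus strand), was at 0 and 0.865 TPM and reached 148 and 119.9 TPM (6.62 ± 0.24). The eosinophil markers themselves stayed at sums from 3.38 to 5.33 TPM across the 4 libraries, and 2 of the 8 were at 0 in all of them. Msx3, a homeobox gene, was listed at 0 in both untreated libraries and at 71.4 and 66.6 TPM with IL-4. Gm17631 was also listed at 0 without IL-4 and at 27.9 and 63.8 TPM with it, so its IL-4 libraries differed from each other by more than 2-fold, and its call was lost without any one of the 4 TC libraries, at adjusted p from 0.0759 to 0.142 for Gm17631.

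Atp6v0d2, a subunit of the proton pump that macrophages need to fuse, had the smallest SE of the 12, at 5.77 and 6.92 TPM untreated and 317 and 321 TPM with IL-4 (5.45 ± 0.09). Slc7a2, a carrier that brings arginine into the cell, went from 2.54 and 2.96 to 126 and 118 TPM (5.04 ± 0.13). Cldn11, a claudin of tight junctions, went from 0.0847 and 0.0913 to 37.3 and 37.6 TPM (5.14 ± 0.13), and Ms4a4a, a tetraspan membrane protein, from 6.14 and 3.17 to 169 and 174 TPM (4.98 ± 0.25). Retnla, the secreted protein FIZZ1, closed the 12 with 0.969 and 6.52 TPM untreated, 126 and 109.7 TPM with IL-4 and 4.95 ± 0.48. Its untreated libraries differed by more than 6-fold, and among the 12 its SE was exceeded by that of Gm17631.

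**Figure D2:**
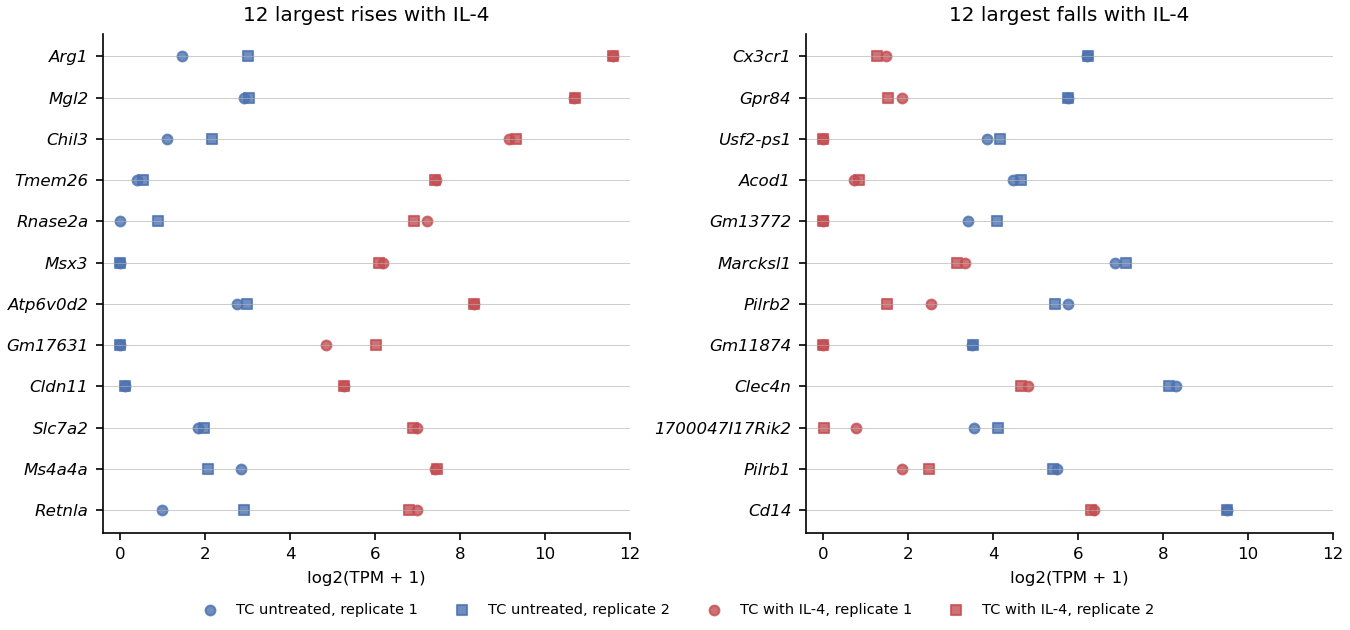
Level of the 12 genes with the largest rises (left) and the 12 with the largest falls (right) in each TC library, as log2(TPM + 1), in blue for untreated and red for IL-4, with circles for replicate 1 and squares for replicate 2. In each gene the red and blue points stand apart, with the widest gaps for Arg1 (9.36) and Mgl2 (7.71).

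The largest fall was that of Cx3cr1, the receptor for the chemokine fractalkine (chromosome 9, 119901616 to 120069879, minus strand). It was at 73.6 and 74.1 TPM without IL-4 and at 1.78 and 1.42 TPM with it, by −4.85 ± 0.16 (adjusted p = 4.9e-08). Gpr84, a receptor for medium-chain fatty acids, fell from 53.1 and 53.1 to 2.65 and 1.9 TPM (−4.05 ± 0.21), though 38.5% of its 31-base words also occur in Gm49482. Acod1, the mitochondrial enzyme that makes itaconate in inflammatory macrophages (chromosome 14, 103046977 to 103056573, plus strand), fell from 21 and 24.1 to 0.656 and 0.793 TPM (−3.77 ± 0.34).

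More abundant genes fell too. Cd14, the co-receptor for bacterial lipopolysaccharide, was at 729 and 724 TPM and at 81.9 and 77.5 TPM with IL-4 (−3.17 ± 0.08). Clec4n, which is dectin-2, a receptor for fungal mannans (chromosome 6, 123229843 to 123247021, plus strand), went from 317 and 279.8 to 27.2 and 24.3 TPM (−3.48 ± 0.10), and Marcksl1, a protein that binds actin at the membrane, from 115 and 139 to 9.11 and 7.93 TPM (−3.75 ± 0.15). In all 3 genes both IL-4 libraries were far below both untreated ones. Such separation was common, with both IL-4 libraries below both untreated ones in 38.4% of all genes tested and above them in 24.5%. The paired immunoglobulin-like receptors Pilrb1 and Pilrb2 fell by 3.27 ± 0.19 and 3.58 ± 0.37 on the log2 scale, but they share 42.8% of their 31-base words, so their separate levels are uncertain.

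The other 4 genes among the 12 falls were hard to read. Gm13772 and Usf2-ps1 are annotated as pseudogenes, and 89.2% and 87.2% of their 31-base words occur in another gene, mostly Cycs and Usf2. Gm13772 was listed at 9.65 and 16.2 TPM untreated and at 0 in both IL-4 libraries, and Usf2-ps1 went from 13.5 and 17 TPM to a value at or near 0. Gm11874, another pseudogene, was at 10.4 and 10.6 TPM and then at 0. All of the words of 1700047I17Rik2 occur in Fam177a.

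The study follows 8 genes in its gels, and 7 of them passed the filter on TC plates and rose. Beside Arg1, Chil3, Rnase2a and Retnla these were Mrc1, Fn1 and Ccl24. Mrc1, the mannose receptor CD206, was already abundant and went from 353 and 340.5 to 1349 and 1380 TPM (1.97 ± 0.09). Fn1, fibronectin, went from 17.3 and 20.4 to 178 and 186 TPM (3.21 ± 0.11). Ccl24, the chemokine eotaxin-2, went from 0.352 and 0.137 to 11.9 and 8.46 TPM (3.15 ± 0.36). Ear2, another RNase of the eosinophil type, was listed at 0 in both untreated libraries and at 1.12 and 1.85 TPM with IL-4, which is under the filter.

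The promoters of Retnla and Tmem26 are shown because, of the 8 genes among the 12 largest rises with an entry in the RefSeq promoter table, these were the ones that hold the site that STAT6 is known to bind, TTC and GAA with any 4 bases between them, in the 250 bases before a start. Sequences are from RefSeq (GRCm38.p6), 5′ to 3′ on the strand of the gene, with matches in capitals.
Retnla: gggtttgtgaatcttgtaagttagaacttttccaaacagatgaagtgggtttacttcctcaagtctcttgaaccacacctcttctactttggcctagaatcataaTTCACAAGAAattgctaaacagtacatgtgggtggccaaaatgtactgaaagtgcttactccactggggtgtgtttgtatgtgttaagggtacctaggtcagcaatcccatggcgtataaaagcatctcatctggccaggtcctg
Tmem26: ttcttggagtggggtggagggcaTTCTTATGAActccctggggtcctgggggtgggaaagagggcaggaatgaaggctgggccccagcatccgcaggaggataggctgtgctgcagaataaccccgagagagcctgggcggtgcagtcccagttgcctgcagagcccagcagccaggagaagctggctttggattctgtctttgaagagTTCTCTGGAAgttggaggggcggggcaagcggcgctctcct
The Retnla window is chr16:48842359-48842608 (plus strand), and its match begins 145 bases before the start. The Tmem26 window is chr10:68723496-68723745 (plus strand) and holds 2 matches. The motif reads the same on both strands. It occurs in 5.85% of all 32851 promoters and in 4.61% of the 11146 promoters of the genes tested. Its share was 5.88% in the 1038 promoters of genes that rose and 7.58% in the 277 promoters of genes that rose at least 2-fold. In those of genes that fell it was 4.24%. Of the lists described below, alternative activation had the site in 4 of 17 promoters (23.5%). Interferon-stimulated genes, none of which rose, had it in 4 of 24 (16.7%), so the site was not confined to genes that rose. A match says only that these letters are present, and binding was not measured in these data.

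Gene lists were drawn up for 33 programs of macrophages and each is given by its counts, to be read against the 9.07% of all genes that rose and the 14.3% that fell, and by its median log2 fold change, to be read against −0.06. Some genes stand in more than one list. In the plot of lists, alternative activation lay furthest toward rises and interferon-stimulated genes furthest toward falls.

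**Figure D3:**
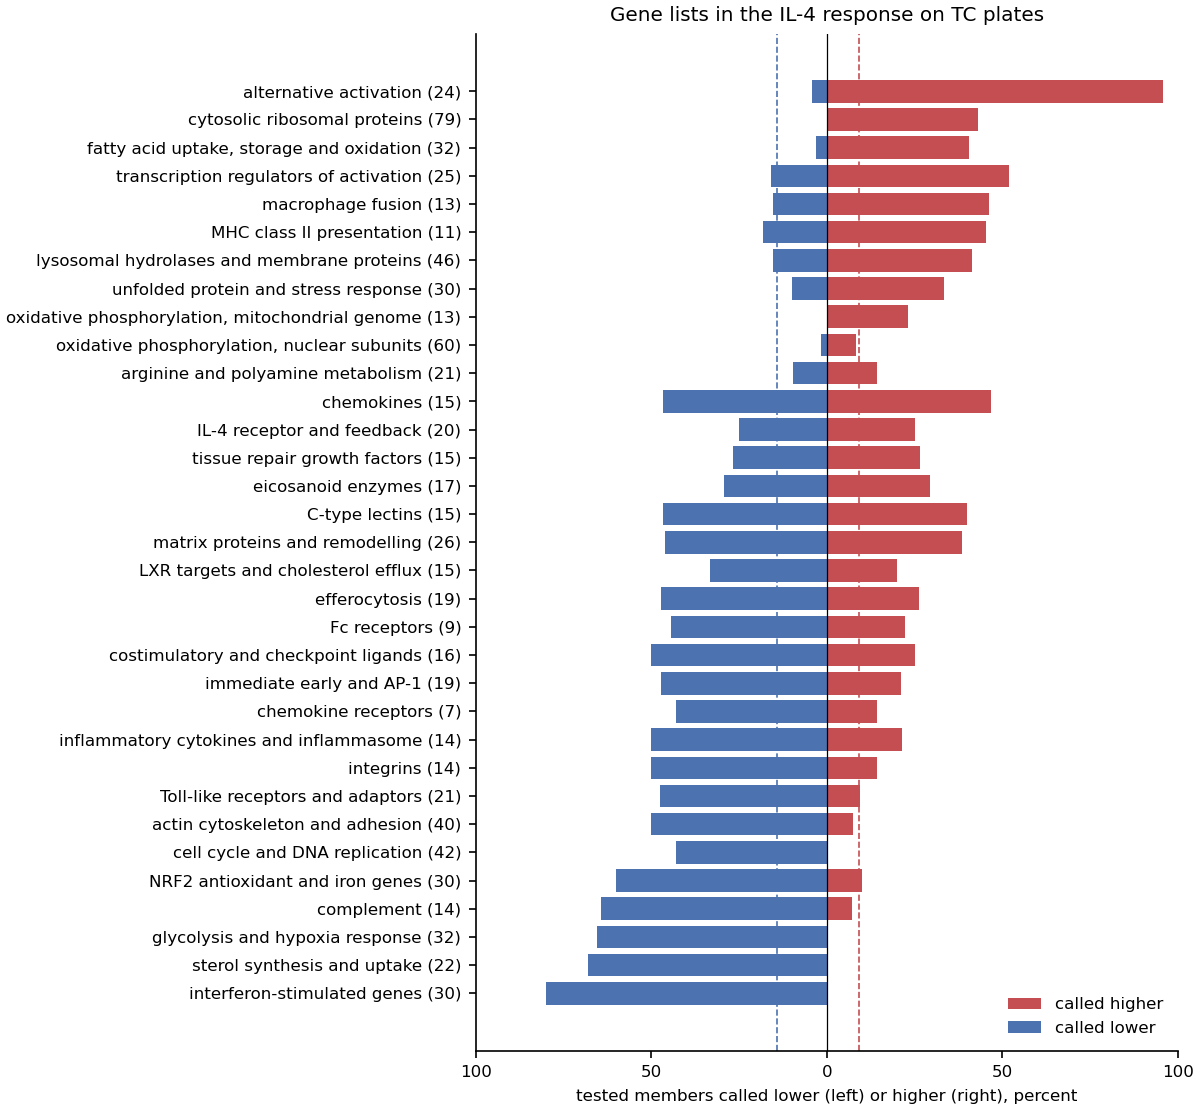
Share of the tested members of each gene list (number tested in brackets) that rose (red, right) or fell (blue, left) with IL-4 on TC plates, in percent, with dashed lines at the shares of all genes tested, 9.07% and 14.3%. Alternative activation has 95.8% of 24 members higher, and interferon-stimulated genes have 80% of 30 members lower.

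The chains of the IL-4 receptor did not move together. Il4ra, the chain that binds IL-4, was at 57.9 and 62.8 TPM untreated and 59.1 and 54.8 TPM with IL-4, with overlapping groups and −0.08 ± 0.08 (adjusted p = 0.51). Both of its partners fell. Il13ra1, the second chain for IL-13, went from 5.53 and 6.91 to 0.594 and 0.902 TPM (−2.04 ± 0.17), and Il2rg, the common γ chain, from 157 and 174 to 82 and 86.8 TPM (−0.96 ± 0.09). Stat6 went from 153 and 151 to 116 and 127 TPM (−0.32 ± 0.06, adjusted p = 0.005), a small fall that remained at −0.26 after rescaling. Stat3 was at −0.33 ± 0.10 and lost its call on rescaling, while Stat5a and Stat5b were at 0.28 ± 0.14 and −0.09 ± 0.08 and did not pass the test.

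Other genes of cytokine signalling moved both ways. Socs1, an inhibitor of JAK kinases, went from 0.816 and 1.17 to 55.8 and 50.6 TPM (4.77 ± 0.14), and Cish, another member of its family, from 1.28 and 0.979 to 20.5 and 10.4 TPM (2.88 ± 0.25). Jak2, a kinase, went from 10.1 and 10.9 to 32.9 and 35.9 TPM (1.62 ± 0.10), and Ptpn6, the inhibitory phosphatase SHP-1, fell by 0.69 ± 0.10. In all, 5 of the 20 tested genes of the receptor and its feedback rose, 5 fell and 10 did not pass.

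Of 25 transcription regulators linked to macrophage activation, 13 rose, 4 fell and 8 did not pass, with a median of 0.68. Egr2, a zinc finger factor, went from 0.699 and 1.09 TPM to 41.3 and 41.2 TPM (4.49 ± 0.17). Klf4 rose by 2.29 ± 0.13, Nfil3 by 2.07 ± 0.11 and Bhlhe40 by 2.00 ± 0.11. Pparg, the nuclear receptor for fatty acids, and Irf4, a partner of alternative activation, rose by 1.80 and 1.74, although Irf4 stayed low at a mean of 3.15 TPM with IL-4. Atf3 rose from 84.5 and 92.4 to 211 and 201 TPM. Ets2 fell by 1.29, Maf by 0.60 and Irf8 by 0.37. Spi1, the factor PU.1 that defines macrophages, was at 342 and 377 TPM and 348 and 350.5 TPM, with a log2 fold change of −0.04 ± 0.07.

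The list of alternative activation had 24 of 30 members above the filter, and 23 rose, with a median of 2.92 (2.85 after rescaling). The list was chosen as genes known to answer to IL-4, and it holds the study's own genes, so its direction is not independent evidence. The one member that fell was Msr1, a scavenger receptor, at −0.65, and it was not called once any one of the 4 libraries was left out. Flt1, a receptor for VEGF, rose by 4.50, Pdcd1lg2, the ligand PD-L2, by 2.42 ± 0.26, and Cdh1, E-cadherin, by 2.95 ± 0.21, from values of 0 and 0.0516 TPM to 7.49 and 6.43 TPM. Ccl17 and Ccl22, chemokines known to answer to IL-4 in dendritic cells and macrophages, were under the filter, at no more than 1.43 and 0.948 TPM in any library.

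In arginine and polyamine metabolism 3 of 21 tested genes rose, 2 fell and 16 did not pass. Beside Arg1 and Slc7a2, Sat1, which acetylates polyamines, rose from 371 and 376 to 685 and 697 TPM (0.88 ± 0.05). Smox, the spermine oxidase, fell from 69.8 and 68.4 to 27.2 and 22.9 TPM (−1.43 ± 0.10), and Ass1, which remakes arginine from citrulline, fell by 0.70. Odc1, which turns the product of arginase into putrescine, was at −0.25 and did not pass. Nos2, the rival enzyme for arginine, was at or under 0.31 TPM in all 4 libraries, below the filter.

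Chemokines split into 7 that rose and 7 that fell of 15 tested. The monocyte attractants rose. Ccl7 went from 635 and 612 to 2544 and 2671 TPM (2.06 ± 0.23), Ccl2 from 1026 and 953 to 2260 and 2184 TPM (1.17 ± 0.24) and Ccl8 from 0 and 1.27 to 15.6 and 11.5 TPM (3.26 ± 0.35), and Ccl12 rose by 2.21. The chemokines of acute inflammation fell. Cxcl2, a neutrophil attractant, went from 46.8 and 35.3 to 2.43 and 6.31 TPM (−3.06 ± 0.37), and Ccl3 and Ccl4, the proteins MIP-1α and MIP-1β, fell by 1.94 and 1.97. Cxcl16 fell by 2.31. The 7 tested genes in the list of chemokine receptors include C5ar1, whose ligand, the complement fragment C5a, is not a chemokine. Of these 7, Cx3cr1, C5ar1 and Cxcr4 were lower, at −4.85, −1.46 and −0.48. Ccr1 rose by 0.21 ± 0.07 (adjusted p = 0.047), a call that was lost without any one of the 4 libraries.

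C-type lectins also split, with 6 of 15 higher and 7 lower. Receptors of the mannose and galactose type rose: beside Mgl2 and Mrc1, Clec10a went from 14.8 and 10.7 to 257 and 254 TPM (4.24 ± 0.13). Clec7a, which is dectin-1, the receptor for β-glucan of fungi, rose from 19 and 23.2 to 443 and 445 TPM (4.34 ± 0.09). The receptors of the dectin-2 cluster fell. Beside Clec4n these were Clec4e, called Mincle, by 2.76, and Clec4d by 1.38. Clec5a and Clec12a fell by 1.53 and 1.56. So the pair of fungal receptors dectin-1 and dectin-2 moved in opposite directions, each with replicates that stayed close.

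Receptors for antibodies moved apart as well. Fcgr2b, the inhibitory Fc receptor, rose from 297 and 292 to 1054 and 1113 TPM (1.88 ± 0.05), and Fcgr3 rose by 0.79 ± 0.05. Fcgr1, the high-affinity receptor, fell from 60.4 and 64.6 to 24.2 and 18.2 TPM (−1.53 ± 0.20). The shared signalling chain Fcer1g fell by 0.57 ± 0.05, and Lyn, a kinase of these receptors, by 1.01 ± 0.08. Of the 9 genes tested, 2 rose and 4 fell.

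Receptors that sense microbes fell more often than they rose. Of 21 Toll-like receptors and adaptors, 2 rose, 10 fell and 9 did not pass, with a median of −0.40. Tlr2, which senses bacterial lipoproteins, went from 54.5 and 58.6 to 7.54 and 8.41 TPM (−2.68 ± 0.13), and Tlr9, which senses bacterial DNA, from 4.96 and 6.21 to 1.27 and 1.02 TPM (−1.61 ± 0.13). Myd88, the shared adaptor, fell by 0.59. Tlr4, the receptor for lipopolysaccharide, went the other way from its co-receptor Cd14 and rose by 0.39. The rises numbered 1 in place of 2 without untreated replicate 1, untreated replicate 2 or IL-4 replicate 2. Tlr8, a receptor for RNA, rose from 49.5 and 47.5 to 116 and 122 TPM (1.28 ± 0.09).

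Of 14 tested genes for inflammatory cytokines and the inflammasome, 3 rose and 7 fell. Tnf fell from 54.8 and 62.7 to 15.3 and 12.2 TPM (−2.02 ± 0.20), and Nlrp3, the sensor of the inflammasome, from 74.8 and 68.5 to 27 and 31.2 TPM (−1.28 ± 0.11). Il1rn, the antagonist of IL-1, fell by 0.88 ± 0.16 and Il18 by 0.77. Il1b was at −0.84 and did not pass. The rises were small, with 0.37 for Nfkb1, 0.34 for Pycard and 0.47 for Tnfaip3. The falls numbered 4 without untreated replicate 1, and the rises 1 without untreated replicate 2 or IL-4 replicate 1. Il6 was listed at 0 in all 4 libraries, and Il10 and Nos2 were below the filter.

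Of the 33 lists, that of interferon-stimulated genes had the largest share of falls. These genes answer to type I interferon and many encode antiviral proteins. Of 30 tested, 24 (80%) fell, none rose and 6 did not pass, with a median of −1.45 (−1.37 after rescaling, with 24 lower). Ifitm3, which blocks the entry of viruses, was the most abundant and went from 971 and 1050 to 156 and 144 TPM (−2.74 ± 0.16). Ifit3 went from 14.1 and 17.1 to 0.489 and 1.34 TPM (−3.15 ± 0.56), with 61.8% of its 31-base words shared with other genes, mostly Ifit3b. Cxcl10, the chemokine IP-10, went from 9.6 and 5.95 to 0.341 and 0.187 TPM (−2.77 ± 0.26), and Oas3, an antiviral enzyme that makes 2-5A, from 25.8 and 34.9 to 4.11 and 3.92 TPM (−2.63 ± 0.49).

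Factors that carry the interferon signal were among the falls, with Irf7 at −1.82, Stat2 at −0.98 and Irf9 at −0.88. Isg15, a ubiquitin-like protein, fell by 1.55, and Rsad2, the antiviral enzyme viperin, by 2.54. Bst2, which tethers virus particles, was at −0.44 ± 0.14 with an adjusted p of 0.054, just outside the threshold. The count of 24 was 14 without untreated replicate 2, 14 without IL-4 replicate 2, 16 without IL-4 replicate 1 and 19 without untreated replicate 1. In the plot of members by program the error bars of this list were wide beside those of the other lists shown.

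The promoters of Cxcl10, Ifit3 and Oas3 are shown as members that fell and that hold the site that interferon-activated factors are known to bind, searched as GAAA and GAAA with any 2 bases between and, for the other strand, TTTC in the same way, and marked in capitals. These genes were chosen for display after their values were seen, and Bst2, which did not pass the test, also holds 2 matches.
Cxcl10: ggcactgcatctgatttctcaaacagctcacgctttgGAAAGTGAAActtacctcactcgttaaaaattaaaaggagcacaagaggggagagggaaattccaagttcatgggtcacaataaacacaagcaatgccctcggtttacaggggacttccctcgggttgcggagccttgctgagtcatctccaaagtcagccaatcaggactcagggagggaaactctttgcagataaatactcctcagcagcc
Ifit3: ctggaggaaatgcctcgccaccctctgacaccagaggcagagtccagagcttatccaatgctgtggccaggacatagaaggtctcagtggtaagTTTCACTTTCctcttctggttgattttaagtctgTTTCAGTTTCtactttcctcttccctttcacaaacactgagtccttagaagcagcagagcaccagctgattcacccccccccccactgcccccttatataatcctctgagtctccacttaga
Oas3: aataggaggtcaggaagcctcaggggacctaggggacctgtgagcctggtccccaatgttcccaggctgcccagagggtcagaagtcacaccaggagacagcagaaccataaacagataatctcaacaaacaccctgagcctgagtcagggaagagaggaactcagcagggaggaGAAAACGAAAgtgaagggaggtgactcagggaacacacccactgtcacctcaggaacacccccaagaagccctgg
The windows are chr5:92348890-92349139 (minus strand) for Cxcl10, chr19:34583279-34583528 (plus strand) for Ifit3, which holds 2 matches, and chr5:120777660-120777909 (minus strand) for Oas3. The site was found in 12 of the 24 promoters (50%) of the tested list, from 20 genes with an entry. It occurs in 2.98% of all promoters and in 2.81% of the 11146 promoters of the genes tested. The share was 4.95% in those of genes that fell and 9.48% in those of genes that fell at least 2-fold. In genes that rose the share was 3.18%. The genes that fell include 24 of the 30 tested list members, so their shares are not independent of the list. Binding was not measured for this site either.

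The complement list had 1 rise and 9 falls of 14. The subunits of C1q, which starts the classical pathway, are among the most abundant transcripts of these cells, and C1qb fell from 2914 and 2910 to 2143 and 1984 TPM (−0.50 ± 0.07) and C1qa by 0.67. C1qc was at −0.32 ± 0.08 and lost its call on rescaling. C5ar1, the receptor for C5a, fell from 623 and 630 to 236 and 217 TPM (−1.46 ± 0.10), and C3 from 22.3 and 20.1 to 9.91 and 12.1 TPM (−0.90 ± 0.19). The rise was that of Itgax, the integrin chain CD11c of complement receptor 4, from 12.6 and 13.4 to 138 and 129.7 TPM (3.27 ± 0.13).

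Of 11 genes of antigen presentation by MHC class II, 5 rose and 2 fell. Cd74, the invariant chain, went from 13 and 14.9 to 80.3 and 77.6 TPM (2.42 ± 0.08) and H2-Aa from 4.29 and 4.0 to 12.8 and 10.3 TPM (1.28 ± 0.10). Ciita, the master regulator of these genes, was below the filter. The count of rises was 2 without IL-4 replicate 2 and 3 without IL-4 replicate 1 or untreated replicate 1, and that of falls was 0 without untreated replicate 2 and 1 without untreated replicate 1 or IL-4 replicate 2. Dendritic cells also express Cd74 and Itgax; the summed dendritic markers were higher in the same libraries, as given above, and their part in these changes was not tested.

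Ligands that steer T cells went in both directions, with 4 of 16 higher and 8 lower. Both ligands of PD-1 rose, Cd274, which is PD-L1, from 10.8 and 10.5 to 43.3 and 42 TPM (1.91 ± 0.11) and Pdcd1lg2 from 0.292 and 0.105 to 5.3 and 5.47 TPM. Lgals9, galectin-9, also known as inhibitory, fell by 0.51, a call that was lost without any one of the 4 libraries, and Vsir, the checkpoint ligand VISTA, fell by 0.34. Of the costimulators, Tnfsf9, the ligand of 4-1BB, fell from 52.4 and 49.7 to 10.3 and 8.69 TPM (−2.31 ± 0.18), Icosl from 25.6 and 27 to 7.33 and 7.24 TPM (−1.72 ± 0.10) and Cd86 by 1.53. Cd40 rose by 0.70.

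Repair factors did not move as one program. Of 15 growth factors tested 4 rose, 4 fell and 7 did not pass. Hbegf, a ligand of the EGF receptor, went from 0.984 and 1.27 to 29.1 and 27.2 TPM (3.78 ± 0.16), and Igf1 from 619 and 658 to 1281 and 1250 TPM (0.99 ± 0.06). Pdgfc rose by 1.28 ± 0.18 at a low level. Pdgfb fell from 26 and 24.6 to 5.05 and 4.7 TPM (−2.16 ± 0.15) and Vegfa from 57.6 and 67 to 27.2 and 32.9 TPM (−1.03 ± 0.12). Tgfb1 was at 0.10 and did not pass.

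Matrix proteins and the enzymes that remodel them had 10 rises and 12 falls of 26. Beside Fn1, the collagenase Mmp13 rose from 11 and 10.1 to 32.8 and 32.3 TPM (1.54 ± 0.19), the elastase Mmp12 by 1.51 and Adam8 by 0.60 ± 0.07. Spp1, osteopontin, one of the most abundant secreted products, fell from 5778 and 5438 to 2828 and 2922 TPM (−0.96 ± 0.07). Thbs1, thrombospondin, fell from 35.9 and 32.9 to 7.49 and 7.56 TPM (−2.05 ± 0.12) and the membrane protease Mmp14 from 8.22 and 7.79 to 1.06 and 1.04 TPM (−2.13 ± 0.13).

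Of 14 integrins 2 rose and 7 fell, and the falls numbered 4 without untreated replicate 2. Itgb3, which pairs with Itgav to bind vitronectin and fibronectin, rose from 9.36 and 9.48 to 85.7 and 83.6 TPM (3.04 ± 0.09), and Itgax was the other rise. Itgal, the α chain of LFA-1, fell from 23.6 and 26.4 to 2.88 and 2.29 TPM (−2.86 ± 0.19) and Itga6, a laminin receptor chain, from 169 and 168 to 61.7 and 65 TPM (−1.40 ± 0.08). Itgb1, the β1 chain, was at 414 and 418 TPM and 432 and 461 TPM and did not pass.

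The actin cytoskeleton fell in 20 of 40 genes and rose in 3, with 18 falls after rescaling and 13 without IL-4 replicate 2. Coro1a, which binds actin filaments in leukocytes, fell from 504 and 471 to 137 and 137 TPM (−1.82 ± 0.08). Tmsb4x, which holds free actin, fell from 9398 and 9298 to 5389 and 5961 TPM (−0.72 ± 0.05), and Actb from 4842 and 4879 to 3995 and 3776 TPM (−0.32 ± 0.06). Vcl, vinculin of adhesions, fell by 0.90 ± 0.15 and Ptk2b, a focal adhesion kinase, by 1.03 ± 0.10. Actn1, an actin crosslinker, rose from 92.8 and 98.7 to 182 and 179.7 TPM (0.91 ± 0.09).

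Genes for the uptake of dying cells had 5 rises and 9 falls of 19. Cd36, a scavenger receptor that also carries fatty acids, rose from 559 and 559.5 to 1754 and 1982 TPM (1.74 ± 0.09). Marco fell from 13.8 and 15.1 to 2.07 and 1.4 TPM (−2.51 ± 0.17) and Axl from 28.9 and 30.7 to 7.36 and 9.12 TPM (−1.74 ± 0.13). Mertk, the related receptor, was at −0.13 and did not pass. The rises numbered 2 without untreated replicate 2 and 3 without any one of the other libraries.

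In metabolism, genes of glycolysis and the hypoxia response fell. Of 32 tested, 21 fell, none rose and 11 did not pass, with a median of −0.42. After rescaling 17 fell and 2 rose, Hk3 and Pfkfb4. Aldoc, an aldolase, fell from 36.1 and 42.5 to 8.0 and 9.32 TPM (−2.06 ± 0.10), the lactate exporter Slc16a3 from 148 and 155 to 53.6 and 46.4 TPM (−1.58 ± 0.09) and Pkm, the pyruvate kinase, from 2195 and 2250 to 1382 and 1403 TPM (−0.67 ± 0.05). Gapdh, a gene often used as a reference, fell from 2516 and 2483 to 1905 and 1712 TPM (−0.47 ± 0.07).

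Pdk1, which keeps pyruvate out of the mitochondrion, fell from 79.6 and 85.8 to 36.6 and 40.7 TPM (−1.08 ± 0.11), and Egln3, a sensor of oxygen that HIF induces, from 11.9 and 11.8 to 2.2 and 3.48 TPM (−1.77 ± 0.16). Tpi1 and Pgk1 fell by 0.91 and 0.83. Hif1a was at −0.19, and Hk2, the inducible hexokinase, at 0.13, and neither passed. The count of falls stayed between 18 and 19 when any one library was left out.

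In oxidative phosphorylation few genes passed the test. Of 60 nuclear subunits 5 rose and 1 fell, with a median of 0.06 (0.12 after rescaling, with 9 higher and none lower). The rises numbered 2 without IL-4 replicate 1 and 3 without any one of the other libraries, and no fall remained in any of these fits. Atp5b, a subunit of ATP synthase, rose from 719 and 718 to 921 and 871 TPM (0.32 ± 0.06). Of the 13 genes of the mitochondrial genome 3 rose, mt-Nd1, mt-Nd2 and mt-Cytb, by 0.28 to 0.30, and none of these remained without IL-4 replicate 2, untreated replicate 1 or untreated replicate 2.

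Fatty acid uptake, storage and oxidation had 13 rises and 1 fall of 32 (15 and 1 after rescaling), with a median of 0.23. Fabp4, a carrier of fatty acids, went from 41.7 and 42.4 to 120.5 and 108 TPM (1.42 ± 0.11) and the lipase Lpl from 224 and 229 to 367 and 365 TPM (0.69 ± 0.15). Pnpla2, which starts the breakdown of stored fat, rose by 0.67 ± 0.07, Plin2 of lipid droplets by 0.51 and Cpt1a, the gate to mitochondrial oxidation, by 0.44. The fall was that of Lipe, a hormone-sensitive lipase, at −0.61, which was not called without IL-4 replicate 1.

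Sterol synthesis fell. Of 22 tested genes that SREBP2 is known to control, 15 fell and none rose, on either scale, with a median of −0.69 (−0.64 after rescaling). Lss, which closes the sterol ring, went from 34.9 and 31.3 to 14.5 and 12.6 TPM (−1.23 ± 0.20) and Msmo1, which removes methyl groups from sterols, from 112 and 111 to 56 and 55.9 TPM (−0.99 ± 0.06). Srebf2, which encodes SREBP2 itself, fell by 0.45. Hmgcs1, at −0.23, and Idi1, at −0.65, did not pass.

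Targets of LXR, the sensor of oxidised cholesterol, did not share a direction. Abca1 fell from 78 and 72.8 to 37.2 and 39.6 TPM (−0.95 ± 0.10) while its partner in cholesterol efflux, Abcg1, rose from 44.2 and 46.2 to 114 and 112 TPM (1.31 ± 0.06). Apoe, among the most abundant, fell from 2777 and 2836 to 2262 and 2106 TPM (−0.36 ± 0.06). In all, 3 of 15 rose and 5 fell.

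Antioxidant genes under NRF2 and genes of iron handling mostly fell, with 18 of 30 lower, 3 higher and a median of −0.41. Prdx1, an abundant peroxiredoxin, fell by 1.19 on the log2 scale, and Nfe2l2, which encodes NRF2, by 0.89. For iron, the intake receptor Tfrc rose from 42.6 and 47.4 to 301 and 316 TPM (2.75 ± 0.14) and the exporter Slc40a1, ferroportin, fell from 245 and 234 to 56.1 and 64.7 TPM (−1.97 ± 0.08). Slc11a1, the metal carrier of the phagosome, fell from 357 and 326 to 138 and 129 TPM (−1.35 ± 0.07). Fth1, the heavy chain of ferritin, fell from 18990 and 20090 to 13440 and 12920 TPM (−0.57 ± 0.06), and under quantile normalization its value was 0.15 and not called. Ftl1, the light chain and the most abundant gene, was at 0.07 ± 0.07 and did not pass.

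Of 46 lysosomal genes 19 rose and 7 fell, and the falls numbered 4 without untreated replicate 2. Psap, the precursor of proteins that help digest lipids, rose from 3696 and 3723 to 7287 and 6810 TPM (0.93 ± 0.05) and the protease Ctsl from 955 and 924 to 1933 and 1950 TPM (1.05 ± 0.05). The V-ATPase subunits Atp6v1a, Atp6v1b2 and Atp6v1h rose by 0.69, 0.95 and 0.61. Ctsc, a protease that activates granule enzymes, fell from 453 and 459.9 to 211 and 211 TPM (−1.11 ± 0.13). Ctsd, the most abundant cathepsin, was at −0.15 ± 0.05 and lost its call on rescaling.

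IL-4 is known to make macrophages fuse into giant cells, and of 13 genes of fusion 6 rose and 2 fell. Beside Atp6v0d2 and Cdh1 these rises were Ccl2, Cd44, Cd9 and Acp5, an acid phosphatase at 1.49 and 2.22 TPM untreated and 11.5 and 9.89 TPM with IL-4 (2.04 ± 0.17). The falls, Cd81 and Tyrobp, numbered 1 without any one of the libraries. Dcstamp, a receptor needed for fusion, was at 0.25 and did not pass.

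Of 30 genes of the unfolded protein and stress response 10 rose, 3 fell and 17 did not pass, with 6 higher without untreated replicate 2 or IL-4 replicate 1. The falls numbered 0 without untreated replicate 2 and 1 without IL-4 replicate 2. Pdia4, a disulfide isomerase, stood out at 141 and 134 and 559 and 545 TPM (2.00 ± 0.07), and Hspa5 and Calr rose by 0.42 and 0.50. The stress factors Atf4 and Xbp1, at 0.16 and 0.09, did not pass. Cytosolic ribosomal proteins rose in 34 of 79 genes and fell in none, by small steps with a median of 0.20 (0.26 after rescaling, with 31 higher), of which Rps18 had one of the largest, from 1493 and 1382 to 1965 and 1892 TPM (0.42 ± 0.06). Their count was 15 without untreated replicate 2, 19 without the mean-variance trend and 20 under quantile normalization.

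Cell cycle genes fell in 18 of 42 and rose in none, with a median of −0.38. When one library was left out, 9 fell without untreated replicate 1 or IL-4 replicate 1, 10 without untreated replicate 2 and 11 without IL-4 replicate 2, where 1 rose, and in a fit of the 4 TC libraries alone 30 fell. Ccnd2, a cyclin of early growth, fell from 40.4 and 43.1 to 23.2 and 10.6 TPM (−1.35 ± 0.36, adjusted p = 0.022), with IL-4 libraries more than 2-fold apart. Its adjusted p without IL-4 replicate 2 was 0.16. Tk1, which makes thymidine for DNA, fell from 163 and 150.5 to 103 and 90.6 TPM (−0.69 ± 0.10), and Top2a by 0.54. The marker Mki67, at −0.35, and Pcna, at −0.20 ± 0.09, did not pass.

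Immediate early genes, which report recent signals, had 9 falls and 4 rises of 19, with 5 falls without IL-4 replicate 2. Fos fell from 36.2 and 40.1 to 11 and 8.73 TPM (−1.85 ± 0.21) and Egr1 from 8.39 and 8.46 to 2.31 and 1.3 TPM (−1.77 ± 0.22), while Egr2 rose. Among 17 genes of eicosanoid synthesis 5 rose and 5 fell (3 without IL-4 replicate 2). Ptgs1, a cyclooxygenase, rose from 18.6 and 19 to 57.5 and 56.4 TPM (1.55 ± 0.09) and Alox5, which makes leukotrienes, fell from 15.3 and 13.3 to 3.89 and 5.85 TPM (−1.40 ± 0.24).

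Of the 10 markers of macrophages themselves 2 rose and 6 fell, and Lyz2, lysozyme, took most of the change in their summed level, from 24120 and 23420 to 13220 and 13300 TPM (−0.84 ± 0.05). Under quantile normalization Lyz2 was at −0.15 and not called. Csf1r, the receptor for CSF1, fell by 0.41, Cd68 rose by 0.32 ± 0.04 and Adgre1, which is F4/80, by 0.59.

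The TC response was compared with that in gels because a change can be called particular to plates only where the difference itself is tested. The libraries of TC plates and gels do not overlap, and each response is measured against untreated cells of its own culture. A difference between responses can therefore lie in the untreated level, in the level with IL-4 or in both. Single TPM values in gels are not reported here. In low-collagen gels 8.87% of the same genes rose and 25.2% fell, with a median of −0.19, and in high-collagen gels 7.62% rose and 11.5% fell, with a median of −0.10. Across the 11683 genes the TC fold changes had a Pearson r of 0.609 with those at low and 0.603 with those at high collagen. Genes are not independent replicates, so these values are a description. Of the 1060 genes that rose on TC plates 474 (44.7%) also rose in both gels, and of the 302 that rose at least 2-fold 210 (69.5%) did. Of the 1670 that fell, 665 (39.8%) also fell in both gels, as did 180 (48.3%) of the 373 with at least a 2-fold fall. Opposite calls in a gel were seen for 67 of the rises and 65 of the falls.

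**Figure D4:**
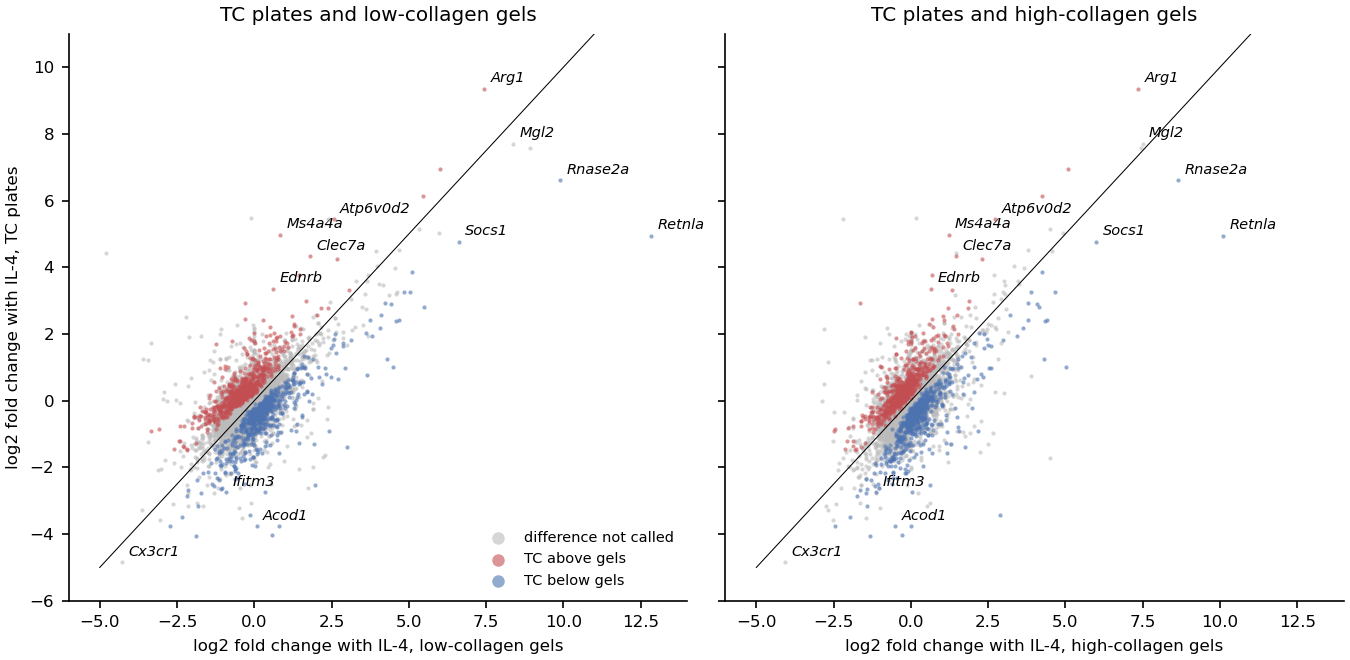
Log2 fold change with IL-4 on TC plates (y axis) against that in low-collagen (left) and high-collagen gels (right), one point per gene tested, with the line of equal change, in red where the TC response was above the mean of the gels by limma, in blue where it was below, and in grey elsewhere. Retnla lies far right of the line, at 4.95 on TC plates and 12.83 and 10.11 in gels, and Ms4a4a far above it.

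The TC response differed from the mean of the low- and high-collagen responses in 1282 genes (11% of those tested), 692 above (5.92%) and 590 below (5.05%). After rescaling 461 were above and 869 below, a turn in which direction was the more common. The count of 1282 fell to between 734 and 844 when any one of the 4 TC libraries was left out, and was 744 without untreated replicate 1, 734 without untreated replicate 2, 844 without IL-4 replicate 1 and 778 without IL-4 replicate 2. TC plates and gels differ in stiffness, dimension and collagen and in how cells were harvested, and these cannot be told apart here.

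The largest difference was that of Retnla, whose log2 fold change was 4.95 on TC plates and 12.83 and 10.11 in low- and high-collagen gels, a difference of −6.52 ± 0.59 (adjusted p = 0.00015). Rnase2a also rose less on TC plates, with 6.62 against 9.89 and 8.65 (−2.65 ± 0.30). Socs1, Cd74 and Pdcd1lg2 were below the gels by 1.54 ± 0.17, 1.35 ± 0.10 and 2.12 ± 0.32. C3 fell by 0.90 on TC plates while it rose by 2.42 and 2.18 in gels (−3.19 ± 0.23). Acod1 was at −3.77 on TC plates and at 0.07 and −0.50 in gels (−3.56 ± 0.42). Among genes with a mean of at least 5 TPM over all 12 libraries, the next largest differences below the gels were those of 1700047I17Rik2 and Usf2-ps1, which share most or all of their sequence with another gene.

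Other genes rose more on TC plates. Ms4a4a rose by 4.98 on TC plates and by 0.83 and 1.22 in gels (3.95 ± 0.30), Atp6v0d2 by 5.45 against 2.58 and 2.73 (2.80 ± 0.11), and Ednrb, an endothelin receptor, by 3.36 against 0.61 and 0.66 (2.73 ± 0.23). Arg1 was above by 1.96 ± 0.44 (adjusted p = 0.02), with untreated values of only 1.76 and 7.09 TPM behind it. Clec7a and Clec10a were above by 2.70 ± 0.11 and 1.75 ± 0.16, Fcgr2b by 1.17 ± 0.06 and Mrc1 by 0.80 ± 0.11. Mgl2, Chil3, Fn1 and Ccl24 were not called in this test, and Chil3 rose by 8.93 and 7.44 in gels. Each of these genes rose less on TC plates than at low collagen and more than at high collagen. The gels were far apart for Ccl24, at 4.37 and 1.43 against 3.15 on TC plates. A difference from either gel alone was not tested, so a missing call does not show equal responses. After rescaling, Fn1 was called below the gels by the same test, at −0.55 (adjusted p = 0.014).

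Metabolic programs were among those with members below the gels. Of the 32 glycolysis and hypoxia genes, 21 were below the gels and none above (22 and none after rescaling), and their medians were −0.42 on TC plates, 0.04 at low and 0.06 at high collagen. Pkm was at −0.67 on TC plates and at 0.14 and 0.03 in gels (−0.76 ± 0.07), and Slc16a3 at −1.58 against 0.08 and 0.17 (−1.71 ± 0.11). Of the 22 sterol genes 11 were below and none above (14 and none after rescaling), with medians of −0.69, −0.03 and −0.01. Msmo1 was at −0.99 on TC plates and at −0.01 and 0.14 in gels (−1.05 ± 0.08). Of the 60 nuclear subunits of oxidative phosphorylation 8 were below and none above (12 and none after rescaling), with medians of 0.06 on TC plates, 0.21 at low and 0.17 at high collagen. On TC plates 5 of these 60 rose, against 33 and 17 in low- and high-collagen gels. Over all genes tested 9.07%, 8.87% and 7.62% rose.

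Interferon-stimulated genes had medians of −1.45 on TC plates, −0.62 at low and −0.79 at high collagen, and 24, 7 and 7 of the 30 fell. Over all genes tested 14.3%, 25.2% and 11.5% fell, so the count at low collagen was close to the share of all genes. Only 5 of the 30 passed the test of the difference, all below the gels (8 after rescaling), so most of that gap between counts was not shown to differ. Ifitm3 was one of the 5, at −2.74 against −0.92 and −1.13 (−1.72 ± 0.20). Spp1 and Il2rg, with −1.17 ± 0.09 and −1.22 ± 0.11, were also below, each with a fall on TC plates and values from 0.06 to 0.38 in gels.

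**Figure D5:**
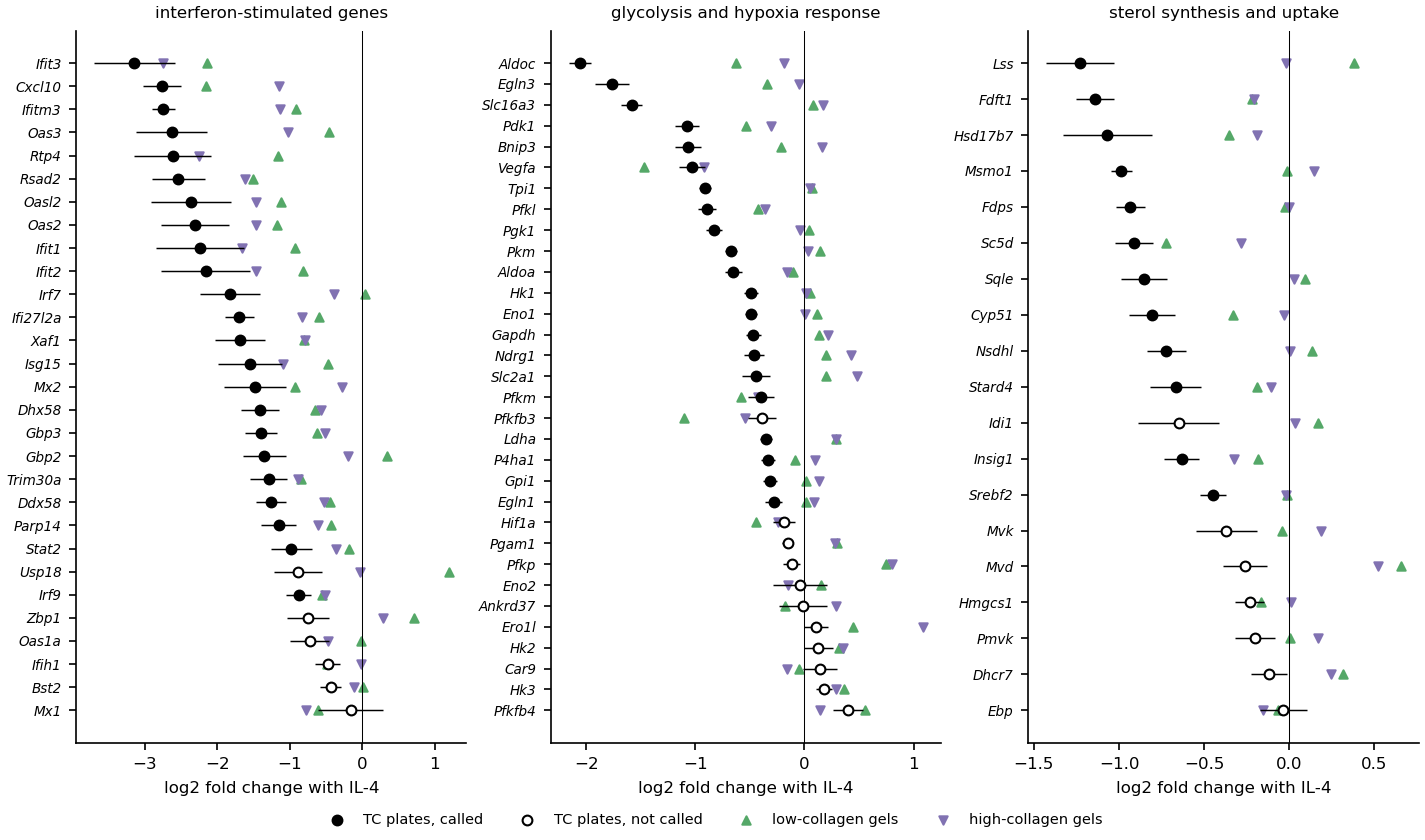
Log2 fold change with IL-4 of tested members of 3 gene lists, a few genes left out, with black circles and SE bars for TC plates (filled where called, open where not), upward triangles for low-collagen and downward triangles for high-collagen gels. Most glycolysis and sterol genes lie below 0 on TC plates while the triangles scatter around 0, and interferon-stimulated genes lie below 0 in most cultures.

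Fatty acid genes went the other way, with 9 of 32 above the gels and none below (6 and 1 after rescaling). Lpl rose by 0.69 on TC plates and was at −0.41 and −0.43 in gels (1.10 ± 0.19), and Pnpla2 rose by 0.67 against −0.61 and −0.41 (1.19 ± 0.09). Of the 46 lysosomal genes 16 were below and 7 above, and of 26 matrix genes 10 below and 4 above. Of the 7 genes in the list of chemokine receptors, C5ar1 included, 4 lay above the gels and none below (2 above and 1 below after rescaling). Among the 4 were C5ar1 and Ccr1, the latter at 0.21 against −1.03 and −1.06 (1.25 ± 0.08). Of the 24 genes of alternative activation 6 were above and 8 below (6 and 9 after rescaling), with medians of 2.92 on TC plates, 3.57 at low and 2.41 at high collagen.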

How the data were processed

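The 12 mouse libraries were made with a stranded mRNA protocol and sequenced as paired reads of 38 bases. The authors quantified them with kallisto 0.46.1 against the GRCm38 transcripts of Ensembl release 90, and the deposited table holds the resulting TPM by gene. TPM carry no depth, and how transcripts were joined into genes is not given in the sources used here.

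Of 34456 lines, 129 repeats were removed. A mean over the 4 TC libraries of 1 TPM or more left 11683 genes, which were tested on log2(TPM + 1) with limma 3.58.1 in R 4.3.3, with a mean-variance trend, 6 condition means and 6 residual degrees of freedom, and Benjamini-Hochberg adjustment over all of these genes. Samples were grouped by their labels. The test was checked on simulated data. The members and gene lists were chosen with earlier results of these data known.

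The text names the 12 largest rises and falls (mean TPM of at least 5, no overlap, same call after rescaling), the 8 genes of the study, up to 4 of the largest and 2 of the most abundant members of each list, the receptor chains and STATs, and the 3 largest differences from gels in each direction. Other genes were named after their values were seen, and some list members are counted but not reported here by name. Locations are those of GENCODE M21, and shared words were counted in its transcripts. Alternatives changed the pseudocount, filter, scaling, trend, threshold, replicate block and libraries.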

Additional observations from a re-analysis of the deposited data

Results flagged for a closer look

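The following responses on TC plates differed from the mean of the low- and high-collagen responses by limma's test of the difference itself (adjusted over all 11683 genes), as did 1282 genes in all. Values are the log2 response on TC plates minus that mean.

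Above the gels were Ms4a4a by 3.95 (adjusted p = 6.7e-05), Atp6v0d2 by 2.80 (2.1e-06), Ednrb by 2.73 (0.0001), Arg1 by 1.96 (0.02), Tmem26 by 1.41 (0.002), Msx3 by 1.29 (0.00063) and Mrc1 by 0.80 (0.002). In all 7 IL-4 raised the gene on TC plates. Msx3 was listed at 0 in the untreated TC libraries, so its value is set by the pseudocount.

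Below the gels by a smaller rise were Retnla at −6.52 (adjusted p = 0.00015) and Rnase2a at −2.65 (0.00054). Below by a larger fall were Gpr84 at −2.46 (0.00041), Cd14 at −1.55 (2e-05), Clec4n at −1.33 (0.00015) and Marcksl1 at −1.16 (0.0041). Acod1 at −3.56 (0.00067) fell on TC plates and was not called in either gel. Usf2-ps1 at −4.15 (0.0035), Gm13772 at −4.16 (0.00013) and 1700047I17Rik2 at −4.81 (4e-05) share most or all of their sequence with other genes. The pseudocount sets the values of the first pair, which were at or near 0 with IL-4. Gm13772 was low in the gels too, with a mean under 5 TPM over all 12 libraries, which limits how far it could fall there. Part of what differs between TC plates and gels is the handling of the cells, which cannot be told apart from the culture itself.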

How the results depend on the processing

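Of the 201 named genes, between 180 and 200 kept their direction and side of the threshold under each alternative, apart from the requirement of a 2-fold change, under which 132 did. One changed direction, Fth1 under quantile normalization, at 0.15 (adjusted p = 0.196). The count of 2730 on TC plates was 4660 at an adjusted p under 0.2 (1771 higher, 2889 lower) and 675 with a 2-fold change (302 and 373). Leaving out one TC library gave 1808 to 1944 genes (756 to 784 higher, 1047 to 1160 lower), with 1808 without untreated replicate 2; each such fit also has fewer samples. The 1282 differences from gels were 3172 at 0.2 (1906 above, 1266 below) and 280 with a 2-fold change (116 and 164), and 461 were above after rescaling, where the cause was not tested. Leaving out one TC library gave 734 to 844 (368 to 444 above, 355 to 400 below). With the replicate number as a block the counts were 2624 and 1115. The replicate numbers gave no sign of paired samples: the correlation of deviations was −0.125 between the TC groups and over 0.1 in 1 of 15 pairs of groups. With 2 libraries per group this check cannot show how the libraries were prepared. Pairing untreated 1 with IL-4 2, added after the data were seen, gave 2562. TPM keep no depth, so what depth limits could not be assessed.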
